A study of Homo sapiens with 12 samples.

Results

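Transcripts of 77 genes of the kinetochore, the kinesin motor family and the mitotic spindle were examined among the 57500 genes of a count table from proliferating and senescent human fibroblasts. Members were taken by name: every gene named CENP followed by letters, every gene named KIF followed by a number, and 17 further genes, namely BUB1, BUB1B, MAD2L1, TTK, NDC80, NUF2, SPC24, SPC25, AURKA, AURKB, PLK1, CDC20, TPX2, MKI67, TOP2A, BIRC5 and INCENP. By their known roles, 49 members act in mitosis, 26 are kinesins of interphase transport, cilia or microtubule control, and 2 genes that carry a CENP name (CENPJ, a centriole assembly protein, and CENPV) were kept apart. The 49 mitotic members comprise 17 inner kinetochore genes, 6 outer kinetochore genes, 5 spindle checkpoint genes, 6 mitotic kinase and passenger complex genes, 2 chromosome genes (MKI67 and TOP2A) and 13 mitotic kinesins.

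The cells were MRC5, a human embryonic lung fibroblast line, in 4 groups of 3 libraries. Prol cells were proliferating and not irradiated. Sen(IR) cells received 20 Gy of X-rays and were collected 10 to 12 days later. Sen(IR)+UK5099 cells were irradiated and kept in 100 μM UK5099, an inhibitor of the mitochondrial pyruvate carrier, and Sen(IR)+CTPI2 cells were irradiated and kept in CTPI2, an inhibitor of the mitochondrial citrate carrier SLC25A1. The methods give 15 and 30 μM for CTPI2 without stating which was sequenced, and place the addition of inhibitors 1 day after irradiation, for 12 days. All groups are 1 line. The study's legends call the replicates independent experiments or conditions, while the labels do not tie a library to a culture or an irradiation, and p-values measure the spread between these libraries.

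During mitosis, the centromere carries nucleosomes with the histone variant CENPA, and a network of CENP proteins on them forms the inner kinetochore. The outer kinetochore, with the NDC80 complex at its core, holds the ends of spindle microtubules, and the checkpoint proteins delay anaphase until every chromosome is attached. Kinesins are motors that walk along microtubules or take their ends apart. Some build and move the spindle only in dividing cells, while others carry organelles and vesicles at all times. Mitotic genes are transcribed late in the cell cycle and are low in cells that have stopped dividing. Many carry a promoter element called the cell cycle genes homology region (CHR), through which repressor and activator complexes act on them, often together with CCAAT boxes.

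Library totals ran from 20597736 to 28245693 counts, and 16251 genes passed a filter on low counts and were tested. Of the members, 71 were tested: 47 of 49 mitotic members, 22 of 26 interphase kinesins and both of CENPJ and CENPV. The 6 others were KIF2B and KIF19, with 0 counts in every library, and KIF4B, KIF12, KIF25 and KIF26A, with at most 7 counts in a library. KIF4B is a copy of KIF4A without introns, so reads of the pair could not always be told apart. The cells were checked with 10 fibroblast markers. Their levels, in CPM (counts scaled to the size of the library), summed to 24951 to 28414 for Prol, 25613 to 26762 for Sen(IR), 22729 to 24846 for CTPI2 and 15268 to 16356 for UK5099. The lower sum with UK5099 came mostly from collagen genes, among them COL1A1 with 1504 to 1719 CPM against 4642 to 4820 CPM in Sen(IR). FAP (13.2 to 13.3 against 143 to 148 CPM), THY1 (207 to 223 against 358 to 380 CPM), FN1 and VIM were also lower, without overlap. LUM (342 to 386 against 345 to 372 CPM), DCN and PDGFRB overlapped with Sen(IR). The part of this shift in the changes below was not tested. Markers of other cell types were low throughout, with summed levels of at most 11.8 CPM for 5 epithelial, 1.36 CPM for 3 endothelial and 2.11 CPM for 3 leukocyte genes, of which KRT5, SFTPC, CDH5 and CD3E were at or near 0.

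RefSeq promoters, from 250 bases before to 50 bases after the transcription start (GRCh38.p14), were found for 63 of the 77 members. The following 6 are shown from 150 bases before the start up to the start, because their genes run from the largest fall with UK5099 to a level close to Sen(IR) and have or lack a CHR. Capitals mark the CHR letters TTTGAA and the CCAAT box letters CCAAT, each searched on both strands, so that a CCAAT box on the other strand reads ATTGG. MKI67 (chr10:128126424-128126573, minus strand), KIF4A (chrX:70289954-70290103, plus strand), CDC20 (chr1:43358831-43358980, plus strand) and PLK1 (chr16:23678739-23678888, plus strand) fell with UK5099 and hold a CHR. KIF20A (chr5:138178962-138179111, plus strand) had the largest fall and no match to the CHR letters in this window. INCENP (chr11:62123861-62124010, plus strand) holds a CHR and was level with Sen(IR). In MKI67, the second CHR and the CCAAT box after it share 1 base.
MKI67: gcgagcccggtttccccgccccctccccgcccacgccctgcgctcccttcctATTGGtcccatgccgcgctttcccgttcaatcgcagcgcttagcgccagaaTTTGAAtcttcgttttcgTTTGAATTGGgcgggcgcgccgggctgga
KIF4A: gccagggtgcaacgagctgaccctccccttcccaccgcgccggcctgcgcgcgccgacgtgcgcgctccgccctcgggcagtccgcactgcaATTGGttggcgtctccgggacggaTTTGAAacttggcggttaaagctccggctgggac
CDC20: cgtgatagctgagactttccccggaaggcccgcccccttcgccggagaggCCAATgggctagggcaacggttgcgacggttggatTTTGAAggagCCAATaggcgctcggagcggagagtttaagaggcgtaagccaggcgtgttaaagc
PLK1: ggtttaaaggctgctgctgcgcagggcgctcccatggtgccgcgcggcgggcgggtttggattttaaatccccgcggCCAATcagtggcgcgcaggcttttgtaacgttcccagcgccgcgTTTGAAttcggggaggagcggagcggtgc
KIF20A: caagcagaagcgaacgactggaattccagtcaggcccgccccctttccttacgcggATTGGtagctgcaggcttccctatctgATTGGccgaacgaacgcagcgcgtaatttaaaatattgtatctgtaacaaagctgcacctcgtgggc
INCENP: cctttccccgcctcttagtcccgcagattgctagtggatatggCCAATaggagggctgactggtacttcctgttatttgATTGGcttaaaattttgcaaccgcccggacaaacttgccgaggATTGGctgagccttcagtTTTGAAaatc

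Of the 42 mitotic members with a promoter in the table, 24 (57.1%) hold at least 1 CHR match, against 1 of 20 interphase kinesins (5.0%, KIF5B) and 15.2% of all 35116 promoters of the same 300 bases. CCAAT boxes were found in 29 of 42 mitotic promoters (69.0%), in 6 of 20 interphase kinesin promoters and in 34.6% of all promoters. A further motif, the E2F-type letters GCGGGAA on either strand, was found in 5 mitotic promoters (11.9%), 3 of 20 interphase kinesin promoters and 6.6% of all promoters. The CHR matches lay close to the start: 25 of the 29 matches in mitotic promoters fell between 100 bases before and 50 bases after it, in 23 of the 24 genes, a window chosen after the positions were seen. These are matches of letters and not measured binding sites.

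Irradiation was first compared with proliferation, to ask how far the division machinery had been lost in senescent cells. All 47 tested mitotic members were lower in Sen(IR) than in Prol in every library, and 46 of them were called lower, against 22.4% of all genes tested (47.2% in either direction). A call here required a Benjamini-Hochberg adjusted p under 0.05 by edgeR's quasi-likelihood test over all genes and an absolute log2 fold change over 0.5. Their median log2 fold change was −3.66, and the summed level of the mitotic members went from 4789 ± 329 CPM over the Prol libraries to 479 ± 8.39 CPM in the Sen(IR) libraries (SD, n = 3), which is 10.01% of Prol. In these bulk libraries, fewer dividing cells and less RNA per cell cannot be told apart. Non-overlap of the groups was common in this comparison, since 70.9% of all genes tested showed it.

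In the inner kinetochore, 16 of 17 genes were called lower, with a median log2 fold change of −2.15. CENPA, the centromeric histone, stood at 26.5, 24.4 and 30.9 CPM in the Prol libraries, and at 0.667, 1.14 and 1.37 CPM in the Sen(IR) libraries. It was 25.9-fold lower, at a log2 fold change of −4.70 (SE 0.17000, adjusted p 1.61e-16). CENPT, which links centromeric DNA to the NDC80 complex, was at 42.1, 34.6 and 40.6 CPM over the Prol libraries and 33.8, 33.3 and 31.1 CPM in the Sen(IR) libraries. Its log2 fold change of −0.26 (SE 0.0775) passed the adjusted p (0.00548) but not the fold limit, so it was the 1 mitotic member not called. The groups did not overlap for either gene. Between them lay CENPB, which binds a sequence box in centromeric satellite DNA, at −0.81, and CENPC, which recruits the outer kinetochore, at −1.12. Of the exon bases of CENPT, 20.2% are shared with neighbouring genes, and of those of CENPS, 65.0%, so their levels may hold reads of those genes. The same holds for CENPP (43.2%), CENPO (31.6%), CENPN (23.1%) and CENPU (14.9%).

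All 6 outer kinetochore genes were called lower, with a median log2 fold change of −4.17. NUF2, a subunit of the NDC80 complex, had the largest fall of all members, from 66.2, 52.8 and 66.4 CPM over the Prol libraries to 1.78, 2.18 and 2.305 CPM in the Sen(IR) libraries. This was 29.6-fold lower (−4.89, SE 0.129, adjusted p 7.15e-19). CENPE, a kinesin that carries chromosomes along the spindle from its seat on the kinetochore, went from 156, 139 and 144 CPM to 12.4, 11.6 and 12.7 CPM and was the least changed of the 6 at −3.58 (SE 0.0715). Even this smallest change was 11.95-fold, and no Sen(IR) library came near a Prol library.

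All 5 checkpoint genes were called lower (median log2 fold change −4.32). CDC20, the activator of the anaphase-promoting complex, stood at 151, 138 and 171 CPM over the Prol libraries and at 7.03, 6.12 and 5.198 CPM in the Sen(IR) libraries, 24.9-fold lower (−4.64, SE 0.102). MAD2L1, which binds and restrains CDC20, went from 90.2, 88.01 and 99.3 CPM to 11.1, 9.24 and 11.8 CPM and changed least (−3.11, SE 0.115). Among the 6 kinase and passenger complex genes, all called lower, PLK1 was at 125, 103 and 129 CPM over the Prol libraries and 4.404, 3.697 and 4.02 CPM in the Sen(IR) libraries. PLK1 is the kinase that drives mitotic entry and spindle assembly, and it was 29.4-fold lower (−4.88, SE 0.139). INCENP, the scaffold of the chromosomal passenger complex, went from 55.7, 46.1 and 44.5 CPM to 10.2, 11.99 and 10.5 CPM, the smallest fall of the 6 at −2.16 (SE 0.101). The other passenger subunits in the set fell further, AURKB, its kinase, at −4.75 and BIRC5, also called survivin, at −3.94.

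MKI67, the coat protein of mitotic chromosomes behind the Ki-67 stain, stood at 271, 224 and 210 CPM over the Prol libraries and at 11.1, 12.6 and 9.27 CPM in the Sen(IR) libraries, a log2 fold change of −4.42 (SE 0.114). TOP2A, the topoisomerase that untangles sister chromatids, went from 725, 667 and 682 CPM to 36.7, 38.2 and 32.9 CPM (−4.26, SE 0.0667). Of the 11 mitotic kinesins tested, all were called lower, with a median of −3.92. KIF18B, a motor that shortens astral microtubules, was at 42.7, 31.6 and 40.1 CPM over the Prol libraries and 1.47, 1.04 and 1.52 CPM in the Sen(IR) libraries, 28.3-fold lower (−4.82, SE 0.188). KIF22, a chromosome-arm motor, changed least, from 68.8, 57.3 and 71.2 CPM to 9.88, 9.101 and 10.9 CPM (−2.72, SE 0.0971). No Prol library overlapped a Sen(IR) library for any of these 4 genes.

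The interphase kinesins moved in both directions. Of 22 tested, 6 were called lower, against 22.4% of all genes tested, and 7 were called higher, against 24.8%, so their share of calls was close to that of all genes. Their median log2 fold change was 0.35, beside 0.014 over all genes tested. Summed, they stood at 1229 ± 70.0 CPM over the Prol libraries and 1085 ± 1.65 CPM in the Sen(IR) libraries, whereas the mitotic kinesins went from 1206 ± 94.7 CPM to 92.6 ± 0.727 CPM (SD, n = 3). The mitotic share of the CPM of KIF members thus went from 49.5% ± 1.79 in Prol to 7.87% ± 0.0528 in Sen(IR). This share leaves out CENPE, a kinesin placed with the outer kinetochore genes. The lower interphase sum after irradiation came from KIF5B, which averaged 555 CPM with proliferation and 366 CPM after irradiation alone. That drop was larger than the drop of the whole interphase sum, so the sum does not show a fall across the class, whose median change was positive.

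**Figure D1:**
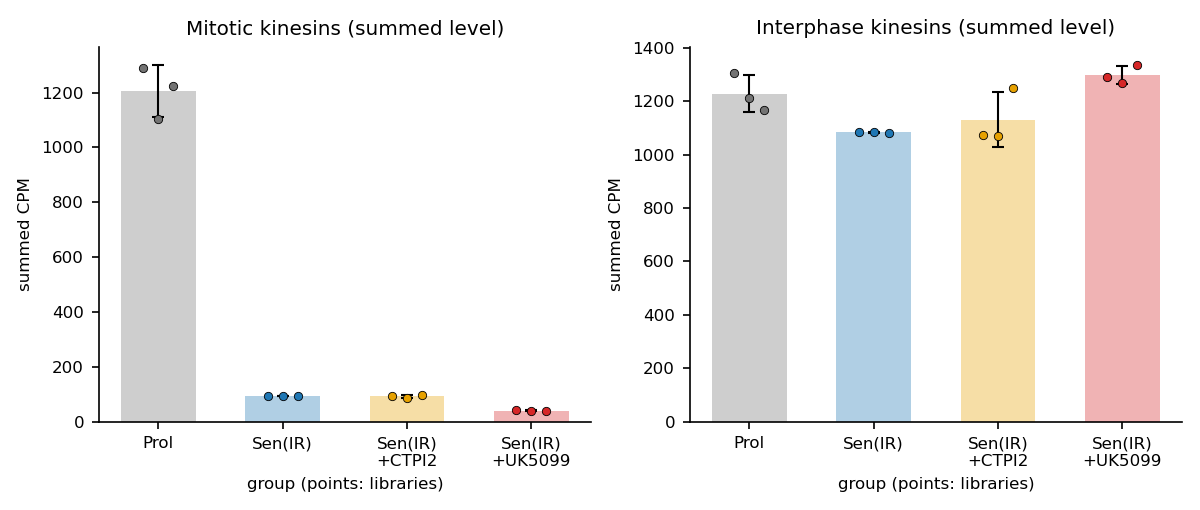
Summed CPM of the mitotic kinesins (left) and the interphase kinesins (right) in the 4 groups, on separate axes that start at 0; bars are means of 3 libraries, error bars are SD and points are libraries. The mitotic sum fell from 1206 CPM over the Prol libraries to 92.6 in Sen(IR) and 40.6 with UK5099, while the interphase sum stayed between 1069 and 1336 CPM in every library of the 4 groups.

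The interphase kinesin with the largest fall was KIF24, a motor at the mother centriole that holds back cilium formation, at 12.4, 10.003 and 11.6 CPM over the Prol libraries and 1.51, 0.758 and 1.23 CPM in the Sen(IR) libraries (−3.27, SE 0.225). KIF17, a motor of neurons and cilia, went from 9.43, 6.14 and 7.99 CPM to 3.74, 3.79 and 3.53 CPM (−1.09, SE 0.175). KIF2A, which takes microtubule ends apart in interphase and also at spindle poles, was at 82.4, 78.6 and 77.998 CPM over the Prol libraries and 51.03, 52.7 and 51.1 CPM in the Sen(IR) libraries (−0.63, SE 0.0553). Of the exon bases of KIF2A, 21.3% are shared with neighbouring genes, so its level may hold reads of those genes. The groups did not overlap for these 3 genes, and KIF24 alone among them fell by about as much as the mitotic members at their median. KIF21B, a kinesin that pauses microtubule growth, was at 0.512, 0.386 and 0.446 CPM and 0.311, 0.0948 and 0.0981 CPM (−1.36, SE 0.539, adjusted p 0.0297), which is 9 to 12 counts against 2 to 7. Its call was lost without Prol replicate 1 (−1.26), without Prol replicate 3 (−1.36), without Sen(IR) replicate 2 (−1.08) and without Sen(IR) replicate 3 (−1.10). It was lost too with DESeq2 (−1.38, adjusted p 0.0611) and with no filter on low counts (−1.36, adjusted p 0.0868). KIF5B, the ubiquitous heavy chain of kinesin-1, was called lower at −0.60, and KIF7, a regulator of Hedgehog signalling at the cilium tip, at −0.53. KIF7 dropped under the fold limit without Prol replicate 1 (−0.49) and without Sen(IR) replicate 1 (−0.48), and both KIF5B (−0.48) and KIF7 (−0.41) did so under upper-quartile scaling, which moved the median of all genes in this comparison to 0.135 on the log2 scale.

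Among those called higher, KIF16B, which carries early endosomes, stood at 14.3, 15.3 and 13.3 CPM over the Prol libraries and at 25.8, 25.9 and 25.8 CPM in the Sen(IR) libraries (0.85, SE 0.0835, adjusted p 5.68e-09). Kinesin-2 motors, which carry cargo in cilia and along microtubules, included KIF3A at 0.69 and KIF3C at 0.65, both called, and KIF3B at 0.39, under the fold limit (0.51 under upper-quartile scaling). KIF6 was at 0.725, 0.859 and 0.929 CPM and 1.38, 1.801 and 1.67 CPM (0.94, SE 0.308). A further pair, known mainly from neurons, was near the floor in Prol. KIF5C, another kinesin-1 heavy chain, had 0, 4 and 2 counts in Prol and 17, 19 and 19 in Sen(IR), and KIF1A, which carries synaptic vesicle precursors, had 0, 2 and 2 counts in Prol and 12, 17 and 2 in Sen(IR). Their fitted log2 fold changes of 3.32 (SE 0.582) and 3.04 (SE 0.784) depend on how the fit treats low counts. For KIF1A, 1 Sen(IR) library had the same count as 2 of the Prol libraries. KIF26B, at 0.66 (SE 0.255, adjusted p 0.0257), lost its call without Prol replicate 1 (0.60), Prol replicate 3 (0.51), Sen(IR) replicate 1 (0.65) or Sen(IR) replicate 3 (0.58).

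The 9 interphase kinesins not called ranged from −0.11 for KIF13A, an endosome motor, to 0.75 (SE 0.47996) for KIF5A, the third kinesin-1 heavy chain. KIF1B, a carrier of mitochondria and vesicles, was nearest to 0 at −0.064 (95% interval −0.22 to 0.092), with 105, 98.2 and 92.6 CPM over the Prol libraries and 100, 93.4 and 89.4 CPM in the Sen(IR) libraries. KIF1C, KIF13B and KIF21A were at 0.17, 0.38 and 0.41, past the adjusted p and under the fold limit. KIF21A passed it without Prol replicate 1 (0.58) or Sen(IR) replicate 3 (0.52), and under upper-quartile scaling (0.53). CENPJ and CENPV were both called lower, CENPJ from 47.6, 39.4 and 44.5 CPM to 10.3, 11.3 and 11.3 CPM (−1.999, SE 0.107) and CENPV from 19.02, 19.3 and 24.3 CPM to 9.03, 8.39 and 8.97 CPM (−1.25, SE 0.123).

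The next comparison set Sen(IR)+UK5099 against Sen(IR), with the inhibitor added 1 day after irradiation. Here too, fewer dividing cells and less RNA per cell cannot be told apart in bulk libraries. Of the 47 mitotic members tested, 32 were called lower in Sen(IR)+UK5099 than in Sen(IR), against 12.1% of all genes tested, and 0 were called higher, against 8.76% (20.8% in either direction). The median log2 fold change was −1.37, beside 0.0099 over all genes tested. The summed mitotic level went from 479 ± 8.39 CPM in the Sen(IR) libraries to 284 ± 5.15 CPM in the UK5099 libraries (SD, n = 3), or from 10.01% to 5.92% of Prol. No mitotic member was under 1% of its Prol mean in Sen(IR), and 16 were with UK5099. The groups did not overlap for 40 of the 47, against 56.6% of all genes tested.

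**Figure D2:**
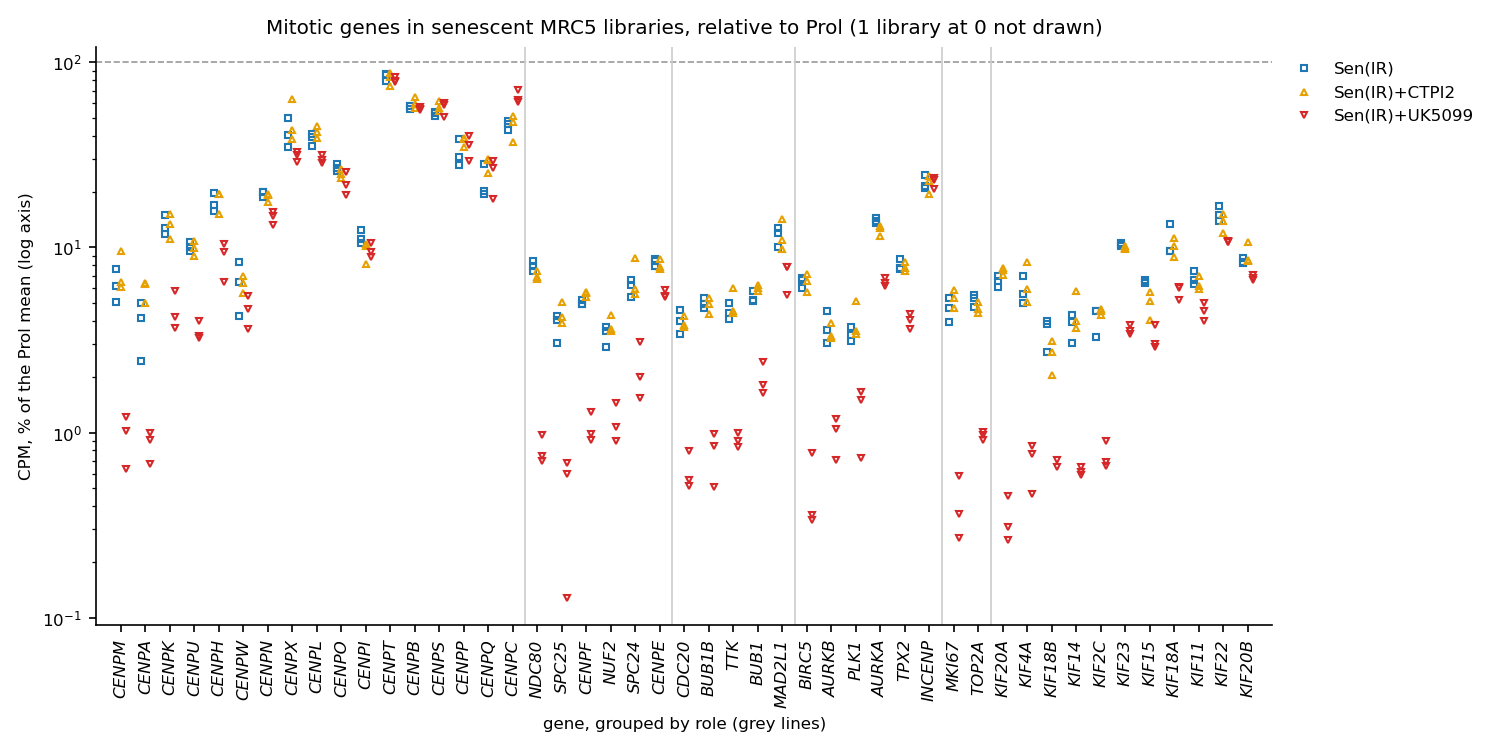
CPM of the 47 tested mitotic members in each senescent library as a percentage of the mean of the 3 Prol libraries (log axis); squares are Sen(IR), upward triangles Sen(IR)+CTPI2 and downward triangles Sen(IR)+UK5099, and grey lines part the role classes. Sen(IR) and CTPI2 libraries lie together in every class, and the UK5099 libraries lie below them for most genes outside the inner kinetochore, where those of CENPT, CENPB, CENPS, CENPP, CENPQ and CENPW overlap with Sen(IR) and those of CENPC lie above it.

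The 4 genes with the largest falls in the whole set were KIF20A, BIRC5, MKI67 and NDC80. KIF20A, which carries the passenger complex to the central spindle at anaphase, stood at 13.3, 12.4 and 11.5 CPM in the Sen(IR) libraries and at 0.497, 0.853 and 0.581 CPM in the UK5099 libraries. It was 18.97-fold lower (−4.25, SE 0.143, adjusted p 1.93e-16) and ended at 0.342% of its Prol mean. KIF20A had already been 15.2-fold lower in Sen(IR) than in Prol (−3.92, SE 0.0743). BIRC5 went from 11.5, 10.4 and 11.8 CPM to 0.621, 1.34 and 0.581 CPM (−3.70, SE 0.197), and MKI67 from 11.1, 12.6 and 9.27 CPM to 1.37, 0.6305 and 0.853 CPM (−3.54, SE 0.206). For each of the 3, the highest UK5099 library was well under the lowest Sen(IR) library.

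Among the 6 outer kinetochore genes, all were called lower with UK5099. NDC80 stood at 7.43, 6.97 and 6.52 CPM in the Sen(IR) libraries and at 0.621, 0.853 and 0.659 CPM in the UK5099 libraries (−3.28, SE 0.165). SPC25, a partner of NDC80 in the same complex, went from 1.38, 0.995 and 1.32 CPM to 0.0414, 0.223 and 0.194 CPM, which is 21 to 31 counts against 1 to 6 (−2.94, SE 0.383). CENPF, a protein of the outermost kinetochore layer, went from 11.7, 11.1 and 11.03 CPM to 2.03, 2.19 and 2.87 CPM (−2.25, SE 0.115). All 4 NDC80 complex subunits were thus lower, with NUF2, at 1.78, 2.18 and 2.305 CPM in the Sen(IR) libraries and 0.662, 0.556 and 0.891 CPM in the UK5099 libraries, at −1.56 and SPC24 at −1.45. CENPE was called at −0.59 (SE 0.0853), the smallest change of the 6.

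All 5 checkpoint genes were called lower as well. CDC20 was at 7.03, 6.12 and 5.198 CPM in the Sen(IR) libraries and 0.787, 1.22 and 0.853 CPM in the UK5099 libraries (−2.67, SE 0.185). BUB1B, the checkpoint protein BubR1, went from 5.21, 5.64 and 5.002 CPM to 0.538, 1.04 and 0.891 CPM (−2.66, SE 0.183). TTK, the checkpoint kinase Mps1, went from 3.29, 3.03 and 3.73 CPM to 0.621, 0.668 and 0.736 CPM (−2.30, SE 0.194). The groups were well apart for these 3 genes, and also for the kinase BUB1 at 7.07, 6.399 and 6.28 CPM against 2.94, 2.23 and 2.02 CPM (−1.47, SE 0.135). MAD2L1 was called at −0.70.

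The chromosomal passenger complex was uneven. While BIRC5 and AURKB were called lower, AURKB from 1.25, 1.47 and 1.86 CPM to 0.2898, 0.482 and 0.426 CPM (−1.90, SE 0.304), their scaffold INCENP was at 10.2, 11.99 and 10.5 CPM in the Sen(IR) libraries and 10.1, 11.2 and 11.5 CPM in the UK5099 libraries. The log2 fold change of INCENP was 0.0045, with a 95% interval from −0.23 to 0.24, which does not reach the fold limit in either direction. Of the other kinase genes, PLK1 went from 4.404, 3.697 and 4.02 CPM to 0.869, 1.78 and 1.98 CPM (−1.37, SE 0.226) and AURKA, the spindle pole kinase, from 24.9, 25.9 and 24.4 CPM to 11.5, 12.3 and 11.2 CPM (−1.10, SE 0.0737). TPX2, the activator of AURKA, was at −0.99, so the activator and its kinase were each close to 2-fold lower (1.99 and 2.14). TOP2A stood at 36.7, 38.2 and 32.9 CPM in the Sen(IR) libraries and 6.71, 6.27 and 6.98 CPM in the UK5099 libraries (−2.44, SE 0.0807).

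In the inner kinetochore only 5 of 17 genes were called lower with UK5099, and the median was −0.37. CENPM stood at 0.756, 0.616 and 0.932 CPM in the Sen(IR) libraries and at 0.124, 0.148 and 0.0775 CPM in the UK5099 libraries, or 13 to 19 counts against 2 to 4 (−2.66, SE 0.437). CENPA went from 0.667, 1.14 and 1.37 CPM to 0.248, 0.185 and 0.271 CPM, or 15 to 28 counts against 5 to 7 (−2.14, SE 0.362, adjusted p 4.48e-05). CENPK was at 5.25, 4.12 and 4.46 CPM against 1.28, 2.04 and 1.47 CPM (−1.52, SE 0.1804), and CENPU, a docking site for PLK1, at 6.98, 6.59 and 7.36 CPM against 2.77, 2.299 and 2.25 CPM (−1.52, SE 0.124). Groups did not overlap for these 4, and CENPH was the last of the 5 called, at −0.996.

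The other 12 inner kinetochore genes stayed within the fold limit, and they included partners of genes that fell. In the unit of CENPH, CENPI, CENPK and CENPM, 3 of 4 were called lower while CENPI was at −0.25 (95% interval −0.53 to 0.042). In the unit of CENPO, CENPP, CENPQ and CENPU, only CENPU was called, with CENPO at −0.29, CENPP at 0.11 and CENPQ at 0.15. None of CENPT, CENPW, CENPS and CENPX was called, the histone-fold genes that form 1 complex on centromeric DNA. CENPT (−0.062, 95% interval −0.22 to 0.10) and CENPB (−0.029, −0.17 to 0.11) were the most closely bounded. CENPL and CENPN, which bind each other, were at −0.37 and −0.43, with adjusted p of 0.00331 and 6.82e-04. Leaving out 1 library brought CENPX from −0.42 to −0.53 (without Sen(IR) replicate 2) and CENPW from −0.46 to −0.69 (without Sen(IR) replicate 1), both then called.

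CENPC went the other way. It stood at 11.7, 13.2 and 12.7 CPM in the Sen(IR) libraries and at 19.3, 17.1 and 16.7 CPM in the UK5099 libraries, after 26.8, 25.6 and 29.4 CPM in Prol. All 3 UK5099 libraries were above all 3 Sen(IR) libraries and below all 3 Prol libraries. Its log2 fold change of 0.495 (SE 0.106, adjusted p 5.51e-04) fell just short of the fold limit, and lay past it without Sen(IR) replicate 2 (0.53) or 3 (0.51), without UK5099 replicate 2 (0.52) or 3 (0.53), and under upper-quartile scaling (0.51).

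**Figure D3:**
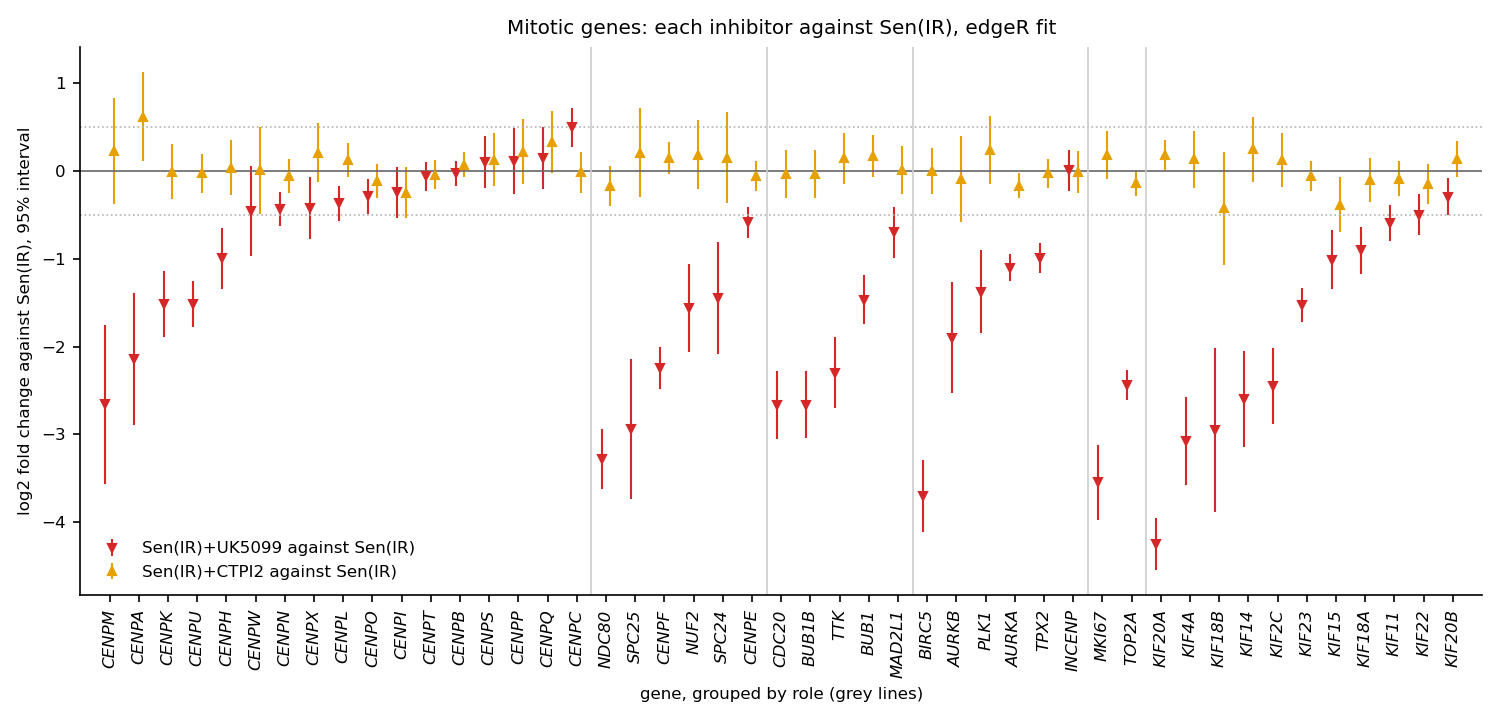
Fitted log2 fold change of the 47 tested mitotic members with UK5099 (downward triangles) and CTPI2 (upward triangles), each against Sen(IR), with 95% intervals; dotted lines mark the fold limit of 0.5 in each direction and grey lines part the role classes. UK5099 values run from −4.25 for KIF20A to 0.49 for CENPC, and CTPI2 values lie around 0, from −0.43 for KIF18B to 0.62 for CENPA.

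Of the 11 mitotic kinesins tested, 9 were called lower with UK5099. KIF4A, a chromosome motor that also sets the length of the central spindle, stood at 6.41, 5.12 and 4.61 CPM in the Sen(IR) libraries and 0.704, 0.779 and 0.426 CPM in the UK5099 libraries (−3.07, SE 0.2403). KIF18B went from 1.47, 1.04 and 1.52 CPM to 0.248, 0 and 0.271 CPM, or 22 to 33 counts against 6, 0 and 7 (−2.95, SE 0.449). KIF14, a motor of cytokinesis, went from 2.76, 2.99 and 2.11 CPM to 0.455, 0.408 and 0.426 CPM (−2.60, SE 0.264). The groups did not overlap for any of the 11. KIF2C, which takes microtubule ends apart at the kinetochore, was at −2.45 and KIF23, the motor of centralspindlin, at −1.53. The pair that pushes the spindle poles apart changed less, with KIF15 at −1.01 and KIF11 at −0.60, and KIF18A, which aligns chromosomes, was at −0.90. KIF20B, a motor of abscission, was not called at −0.29 (adjusted p 0.0218). KIF22, at −0.497 (adjusted p 0.00116), lay just inside the fold limit and crossed it without Sen(IR) replicate 1 (−0.504) or 2 (−0.558), and also with DESeq2, RLE scaling, no filter on low counts or only the 2 compared groups (−0.5005 to −0.5044).

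Levels were also set per kilobase of exon (RPKM), which allows genes to be compared. In Prol, KIF20A had the highest level of the mitotic kinesins at 48.9 RPKM, ahead of KIF11 at 36.4 and KIF23 at 30.1. With UK5099, KIF20A stood at 0.167 RPKM, and KIF11 at 1.64, KIF20B at 1.22 and KIF18A at 1.14 were the highest. Of all mitotic members, TOP2A (108 RPKM) and TPX2 (96.6 RPKM) had the highest levels in Prol, and CENPB (21.9 RPKM) and CENPT (5.54 RPKM) with UK5099. The interphase motor KIF5B was above the mitotic kinesins throughout, at 94.6 RPKM in Prol and 65.95 RPKM with UK5099.

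The promoter matches were set beside the change with UK5099 as a description. Of the 40 tested mitotic members with a promoter, 26 were called lower, of which 18 (69.2%) hold a CHR match, and 14 were not called, of which 5 (35.7%) hold one. No promoter was found for AURKA, BIRC5, CENPH, CENPM, TPX2 and TTK, all called lower, or for CENPL, not called. These are left out of the shares. Members with a CHR match had a median log2 fold change of −1.56 and those without one of −0.50. CCAAT boxes were found in 20 of the 26 called (76.9%) and 8 of the 14 not called (57.1%), and E2F-type letters in 2 of 26 (7.7%) and 3 of 14 (21.4%). The split had clear exceptions: KIF20A, KIF2C, AURKB, CENPK, CENPU, BUB1, SPC24 and CENPE fell without a CHR match in the window, while INCENP, CENPC, CENPN, CENPO and KIF20B hold one and were not called. No test was made of these shares.

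**Figure D4:**
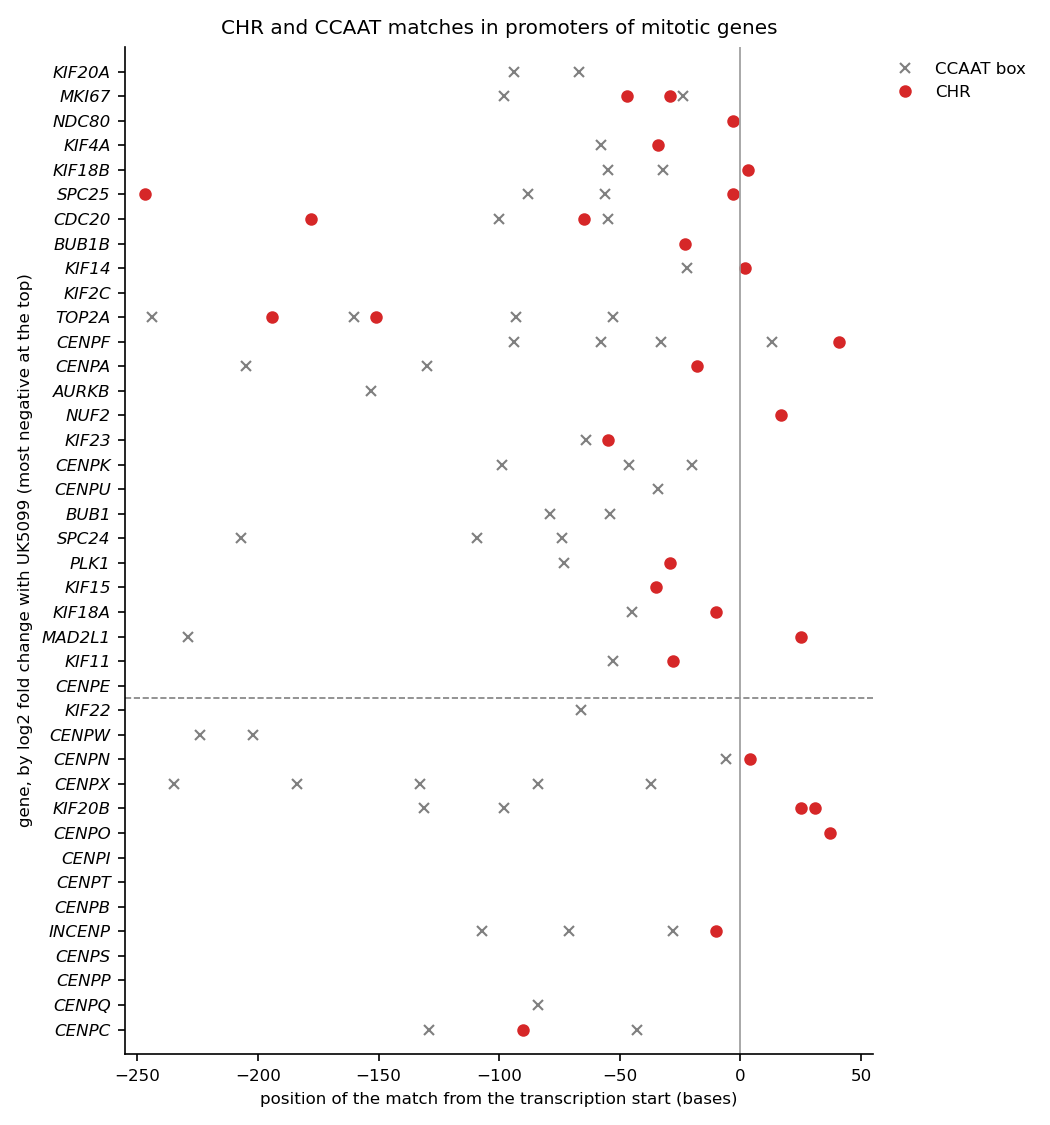
Positions of CHR (filled circles) and CCAAT box (crosses) matches from 250 bases before to 50 bases after the transcription start, in bases, in the promoters of the 40 tested mitotic members that have one, ordered by log2 fold change with UK5099 with the largest fall at the top; genes above the dashed line were called lower. Circles are more frequent above the line (18 of 26 genes) than below it (5 of 14) and most lie near the start.

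Of the interphase kinesins, 2 were called lower with UK5099 and 3 higher, among 22 tested (background 12.1% and 8.76% of all genes). KIF24, which had followed the mitotic members in Sen(IR), stood at 1.51, 0.758 and 1.23 CPM in the Sen(IR) libraries and at 0.248, 0.668 and 0.581 CPM in the UK5099 libraries (−1.20, SE 0.346, adjusted p 0.00699). Its groups did not overlap, but the call was lost without Sen(IR) replicate 1 (−0.96). KIF1A had 12, 17 and 2 counts in Sen(IR) and 1, 4 and 4 with UK5099, so the groups overlapped. Its fitted value of −2.0004 (SE 0.6705) lost its call without Sen(IR) replicate 1 (−1.92), Sen(IR) replicate 2 (−1.43) or UK5099 replicate 1 (−1.64).

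KIF13A, an endosome and sorting vesicle motor, stood at 76.6, 77.3 and 74.3 CPM in the Sen(IR) libraries and 145, 130 and 138 CPM in the UK5099 libraries (0.86, SE 0.0717, adjusted p 1.66e-09). The levels of KIF13A in Prol, 92.6, 76.9 and 76.3 CPM, were close to those in Sen(IR). KIF3C went from 23.3, 28.98 and 23.4 CPM over the Prol libraries to 38.6, 41.7 and 38.7 CPM in the Sen(IR) libraries and 62.9, 65.3 and 60.6 CPM in the UK5099 libraries, so that it was called higher at both steps (0.65 and 0.67, SE 0.0721 for the second). KIF5A had 12, 6 and 13 counts in Sen(IR) and 26, 30 and 33 with UK5099 (1.25, SE 0.389), and its call was lost without Sen(IR) replicate 2 (0.98). The 3 groups of values did not overlap for KIF3C, and those with UK5099 were above Sen(IR) for all 3 genes.

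A further 6 interphase kinesins passed the adjusted p with UK5099 with a positive change under the fold limit. They were KIF1B at 0.495, KIF7 at 0.49, KIF13B at 0.47, KIF21A at 0.38, KIF3B at 0.31 and KIF3A at 0.29. KIF1B passed the limit without Sen(IR) replicate 1 (0.54) or UK5099 replicate 2 (0.54), KIF7 without Sen(IR) replicate 3 (0.56) or UK5099 replicate 1 (0.501), and KIF13B without UK5099 replicate 2 (0.55). Upper-quartile scaling also moved KIF1B (0.514) and KIF7 (0.504) past it. KIF7 thereby stood at 97.02% of its Prol mean with UK5099, after 69.4% in Sen(IR). Neither CENPJ nor CENPV was called. The summed interphase level was 1300 ± 33.9 CPM in the UK5099 libraries (SD, n = 3), above all Sen(IR) libraries. With UK5099, the mitotic share of the CPM of KIF members was 3.03% ± 0.0763 (SD, n = 3).

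**Figure D5:**
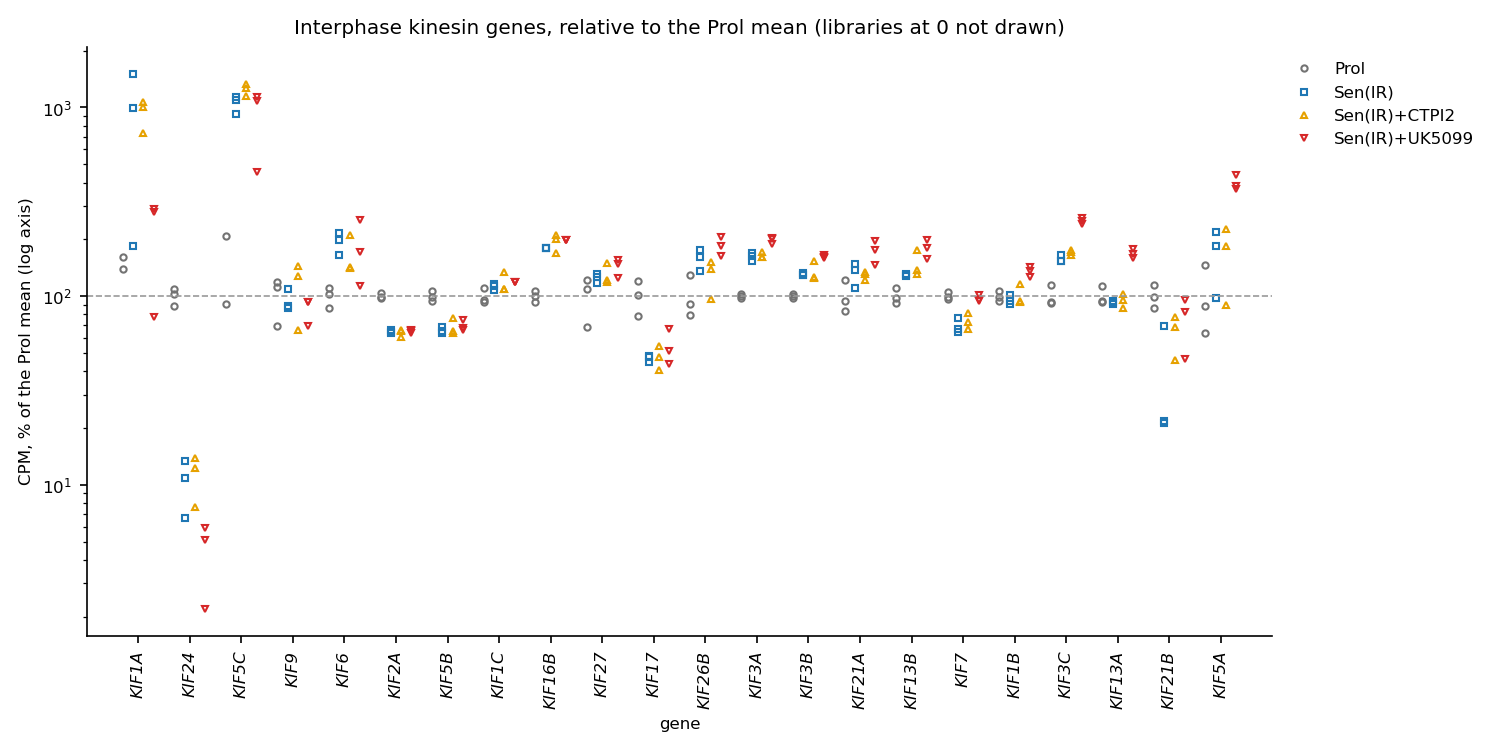
CPM of the 22 tested interphase kinesins in each library as a percentage of the mean of the 3 Prol libraries (log axis), ordered by log2 fold change with UK5099; circles are Prol, squares Sen(IR), upward triangles Sen(IR)+CTPI2 and downward triangles Sen(IR)+UK5099, and libraries at 0 are not drawn. KIF24 sits near 10.3% of Prol in Sen(IR) and 4.40% with UK5099, KIF1A and KIF5C rest on few counts in Prol, and most others stay within a few fold of their Prol level.

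CTPI2 was compared with Sen(IR) in the same fit. By edgeR's quasi-likelihood test, 0 of the 71 members tested were called with CTPI2, where 0.166% of all genes were (0.0185% higher and 0.148% lower). At an unadjusted p under 0.05, 5 members passed, against 7.27% of all genes, and DESeq2 called 0 mitotic members and 0 interphase kinesins. The median log2 fold change of the mitotic members was 0.0053, and their sum stood at 480 ± 21.1 CPM against 479 ± 8.39 CPM in the Sen(IR) libraries (SD, n = 3). The 3 with the smallest unadjusted p were KIF15 at 2.81, 1.98 and 2.51 CPM against 3.11, 3.18 and 3.24 CPM in Sen(IR) (−0.39, SE 0.151), CENPA at 1.75, 1.36 and 1.73 CPM against 0.667, 1.14 and 1.37 CPM in Sen(IR) (0.62, SE 0.245), and AURKA at 23.5, 20.7 and 22.9 CPM against 24.9, 25.9 and 24.4 CPM (−0.17, SE 0.0692). The signs of these were mixed, and none passed the adjustment over all genes (adjusted p 0.524, 0.536 and 0.587).

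The intervals show what these libraries could resolve. The half-width of the 95% interval had a median of 0.272 over the 47 mitotic members, 33 of the 47 intervals lay within 0.5 of 0 in both directions, and 45 lay within 1. MKI67 was at 12.5, 11.1 and 13.8 CPM with CTPI2 (95% interval of the log2 fold change −0.092 to 0.45), KIF20A at 14.2, 13.3 and 14.6 CPM (0.0044 to 0.35) and BIRC5 at 12.5, 9.95 and 11.4 CPM (−0.26 to 0.26). For these 3 genes, whose falls with UK5099 were among the largest, changes beyond the fold limit lay outside the interval with CTPI2. The widest intervals were those of KIF18B (−1.07 to 0.22) and CENPM (−0.38 to 0.83), which rest on at most 33 and 27 counts in these libraries. Besides that of KIF18B, the interval of CENPA also passed 1, with an upper end of 1.13. Interphase kinesins gave 0 calls, a median of 0.057 and a sum of 1132 ± 104 CPM. That spread came from CTPI2 replicate 3, at 1251 CPM, beside 1075 CPM in replicate 1 and 1069 CPM in replicate 2.

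The inhibitors were also set against each other, with the caution that their concentrations differed, that this comparison shares the UK5099 libraries with the one against Sen(IR), and that the CTPI2 libraries differed little from Sen(IR). Between the inhibitors, 33 of the 47 mitotic members were called lower in the UK5099 libraries, against 11.7% of all genes tested, and 1 was called higher, against 8.2% (19.9% in either direction). KIF20A differed most, at 14.2, 13.3 and 14.6 CPM with CTPI2 against 0.497, 0.853 and 0.581 CPM in the UK5099 libraries (−4.42, SE 0.139). The 1 called higher was CENPC, at 14.03, 12.9 and 10.1 CPM with CTPI2 (0.51, SE 0.105), whose call was lost without CTPI2 replicate 3 (0.39) or UK5099 replicate 1 (0.45). Calls were also lost for CENPE without CTPI2 replicate 3 (−0.48), for CENPX without CTPI2 replicate 1 (−0.39), and for KIF11 without CTPI2 replicate 1 (−0.44), without UK5099 replicate 2 (−0.43) or under upper-quartile scaling (−0.48). INCENP was again level, with a 95% interval from −0.21 to 0.25. Among interphase kinesins, KIF13A (0.82), KIF3C (0.55) and KIF5A (1.25) were called higher with UK5099 and KIF1A (−2.05) and KIF24 (−1.32) lower. Of these, KIF5A lost its call without CTPI2 replicate 3 (0.95) and KIF1A without UK5099 replicate 1 (−1.68).

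Further genes of the same pathways, from lists by role, gave the wider picture in Sen(IR)+UK5099 against Sen(IR) (background 12.1% lower and 8.76% higher). Of 28 spindle and cytokinesis partners, 15 were called lower and 1 higher, led by DLGAP5, a spindle stabiliser (−3.88, SE 0.176), HMMR, which supports spindle poles (−3.37, SE 0.157), and CKAP2L, a spindle-associated protein (−3.04, SE 0.197). The 1 called higher was HAUS5, a subunit of the augmin complex, at 0.61 (SE 0.1803). Of 21 kinetochore and checkpoint partners, 8 were called lower, led by SKA1 (−2.15) and SKA3 (−1.88), which hold the kinetochore to microtubules, and CDCA8 (−1.67), the borealin subunit of the passenger complex. With CDCA8, 3 of the 4 passenger subunits were thus lower, and INCENP was the exception. Among the genes of centromere assembly called lower were HJURP, the chaperone that loads CENPA (−2.57, SE 0.194), and MIS18A (−0.54). Of 8 condensin subunits, 3 were called lower, namely NCAPH (−2.20), NCAPG (−2.04) and NCAPG2 (−0.89).

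Of 20 genes of mitotic exit and the anaphase-promoting complex, 5 were called lower with UK5099, led by UBE2C, the ubiquitin-conjugating enzyme of that complex (−3.16, SE 0.373), PTTG1, the securin (−1.36), and FBXO5, an inhibitor of the complex (−1.07). Of 12 transcription regulators of mitotic genes, 2 were called lower and 1 higher, close to the shares of all genes. The other 9 were not called, and the list median was −0.020. Lower were MYBL2 (−3.34, SE 0.2795) and FOXM1 (−1.37, SE 0.102), activators of late cell cycle genes. Higher was LIN52, a subunit of the complexes that contact the CHR (0.51, SE 0.0928). MYBL2 was at 2.82 CPM in the Sen(IR) libraries and 0.278 CPM in the UK5099 libraries, and FOXM1 at 11.2 CPM and 4.33 CPM. In the transport lists, calls were no more frequent than over all genes, with 1 lower (KIFC3, −0.69) and 1 higher (KIFC2, 1.04) of 13 kinesin light chains and partners, and 0 lower and 1 higher (DYNLL2, 0.60) of 19 dynein and dynactin subunits. In Sen(IR) against Prol the lists given with their sizes had 27 of 28, 18 of 21, 8 of 8, 11 of 20, 8 of 12, 2 of 13 and 1 of 19 genes called lower, in the order named here, beside 22.4% of all genes. Called higher were 1 of the 20 mitotic exit genes, 4 of the 13 kinesin light chains and partners and 3 of the 19 dynein and dynactin subunits, beside 24.8% of all genes, and 0 genes of the other lists. With CTPI2, 0 genes of any list were called against Sen(IR), and 3 passed an unadjusted p under 0.05, namely 2 mitotic exit genes and 1 regulator.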

How the data were processed

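RNA from 12 libraries of MRC5 fibroblasts was sequenced as paired ends. Per the labels and methods, the authors used Trimmomatic 0.36 for trimming, STAR 2.5.2b for alignment to GRCh38, and featureCounts of Subread 1.5.2 to count the uniquely mapped reads in the exons of each gene. The deposited table holds raw counts. Whether counting used strand is not stated in the sources used here, so antisense and overlapping genes may share reads.

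Counts were fitted in R 4.3.3 with edgeR 4.0.16 (filterByExpr, TMM scaling, glmQLFit, glmQLFTest), all 4 groups in 1 fit without a replicate term. Benjamini-Hochberg adjustment covered the 16251 genes tested, and SE is the absolute log2 fold change divided by the square root of F. The coefficient of variation between replicates in the fit, common to all genes tested and apart from counting noise, was 6.12%. The procedure was tested on simulated data. CPM used TMM-scaled library sizes, and RPKM used exon lengths of GENCODE release 44. Promoters came from RefSeq.

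Values in every library are given for the largest and smallest change of each role class after irradiation, up to 4 called members per class with UK5099, up to 4 interphase kinesins per direction and the 3 smallest p-values with CTPI2. They are also given for CENPC, the mitotic member called against the class direction, a call made only between the inhibitors. Other values are examples. From each pathway list, up to 3 genes with the largest changes are named, and HAUS5 was added after its value was seen. Some results are not reported here. Members and lists were chosen with earlier results of these data known. Alternatives were DESeq2 1.42.0, other scalings, filters, limits and fits, a replicate block, and leaving out each library.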

Additional observations from a re-analysis of the deposited data

How the results depend on the processing

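Of 176 member values followed, 151 kept their direction and their side of the limits in every alternative that used the adjusted p and the fold limit of 0.5. The counts of called members went through 16 alternatives per comparison, which also included unadjusted p, a fold limit of 1 and no fold limit. The mitotic members called numbered 46 of 47 after irradiation in every fit without 1 library and 44 to 47 under the other settings, 32 to 35 and 26 to 39 with UK5099 against Sen(IR), and 32 to 35 and 25 to 38 with UK5099 against CTPI2. With CTPI2, 0 mitotic members were called without any 1 library, and 1 (CENPA, higher) when p was left unadjusted (both edgeR and DESeq2). Interphase kinesins called went from 13 after irradiation to 5 at a fold limit of 1 (11 to 14 without 1 library). They went from 5 to 3 at a fold limit of 1 and to 11 with no fold limit, both for UK5099 against Sen(IR) (3 to 7 without 1 library, 3 of them without Sen(IR) replicate 2) and for UK5099 against CTPI2 (4 to 6 without 1 library). With CTPI2 they stayed at 0. Values near 0 that changed sign were KIF1B (0.057) and KIF13A (0.014) after irradiation under upper-quartile scaling, and INCENP with UK5099 under DESeq2 (−0.0021), RLE scaling (−0.0017), only the 2 compared groups (−0.0028) and without 1 library (−0.043 to 0.079). A replicate block gave 46 and 13 calls after irradiation, 32 and 5 with UK5099, 0 and 0 with CTPI2 and 34 and 5 between the inhibitors, for mitotic members and interphase kinesins, and changed no call. Libraries of the same number deviated together by correlations of −0.015 to 0.042, so the numbers were not taken as pairs. Depth limits, among others, KIF1A, KIF5C, KIF5A, KIF21B, CENPA, CENPM, SPC25 and KIF18B, which rest on few counts in at least 1 group. With UK5099 this also holds for AURKB (7, 13 and 11 counts), KIF24 (6, 18 and 15), SPC24 (11, 19 and 9) and KIF14 (11 in each library). A cause for any of these changes was not tested.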
